A study of Chlorocebus sabaeus with 3 samples.

Results

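The expression of 10 S100 genes (S100A2, S100A4, S100A6, S100A8, S100A9, S100A10, S100A11, S100A14, S100A16, and S100P) was compared among limbal, corneal, and conjunctival tissue of the vervet monkey (Chlorocebus sabaeus). Members were found by name, as probe sets of the human array that carry a member as their only gene symbol. This gave 13 probe sets among 54675 on the array, and all 10 genes had at least 1. S100A6, S100A8, and S100A10 had 2 probe sets each and the other members had 1. Total RNA of each tissue was hybridized to 1 Affymetrix human U133 Plus array, so 3 arrays in all were available. The tissues came from the same eye, so the arrays are matched by eye and hold no variation between animals. The animals of the study were about 3 years old, and no treatment or genotype is stated for any group. The limbus was dissected as the rim between the other tissues, and each sample held the epithelium with the stroma beneath it, or, for the conjunctiva, with the underlying Tenon tissue. A difference in a value can therefore reflect more or fewer cells of a type or more or less RNA per cell, and these cannot be told apart.

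S100 proteins are small calcium sensors. Each chain carries a pair of EF-hand loops, most members work as dimers, and calcium binding opens a surface that docks to target proteins such as annexins, the cytoskeleton, or p53. In stratified epithelia several members mark the basal or the differentiating layers, while S100A8 and S100A9 are carried by myeloid cells and are induced in stressed epithelium, where they chelate metal ions as calprotectin. S100A4 is widely used as a marker of fibroblasts and other motile cells, and S100P is known from secretory and gastrointestinal epithelia.

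The values are RMA intensities on a linear scale, which the authors normalized against a fixed reference pool of arrays. The median over all probe sets was 49.0 in limbal, 48.8 in corneal, and 50.7 in conjunctival tissue, and a value of 100 was taken as the limit below which ratios are uncertain. The corneal and conjunctival labels were checked against defining genes. KRT12, a keratin of corneal epithelium, was at 8068 in the corneal sample, 2632 in the limbal sample, and 54.3 in the conjunctival sample. MUC5AC, the goblet cell mucin, was at 102, 127, and 1618, respectively. No gene that defines the limbus was fixed for this check. The 3′ GAPDH control probe set exceeded the 5′ one by a factor that ranged from 3.12 (limbus) to 4.58 (cornea). For actin this factor was 11.8 in limbal, 11.2 in corneal, and 10.3 in conjunctival tissue. The geometric mean of 18 hybridization control probe sets was 735 in limbal, 1128 in corneal, and 902 in conjunctival tissue. With 1 array per tissue there was no replicate error, and no difference below carries a p-value. The comparisons share arrays and are not independent of each other.

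The S100 genes did not follow a common pattern. S100P was highest in the conjunctiva, S100A9 and S100A2 were low in the cornea, and S100A4 and S100A6 were highest in the cornea. S100A10, S100A14, S100A16, and, on its brighter probe set only, S100A8 were highest in the limbus. All 10 members reached 100 in at least 1 tissue on their brightest probe set, and the second probe sets of S100A6, S100A8, and S100A10 were at or below 46.3 in every tissue. On the brightest probe set the cornea was the lowest tissue for 7 of the 10 members, compared with 31.5% of all 19302 probe sets that reach 100 in at least 1 tissue. For 4 members the limbus was highest, for 4 the conjunctiva, and for 2 the cornea. The shares over those probe sets were 24%, 33.3%, and 42.7%, respectively. The median ratio of the highest to the lowest tissue was 2.34 over the members and 1.45 over the 11003 genes whose brightest probe set reaches 100. This ratio was at least 2 in 7 of the 10 members and in 20.3% of those genes. Because the genes were picked for study with earlier results of these arrays known, these shares describe the members and are no test.

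**Figure D1:**
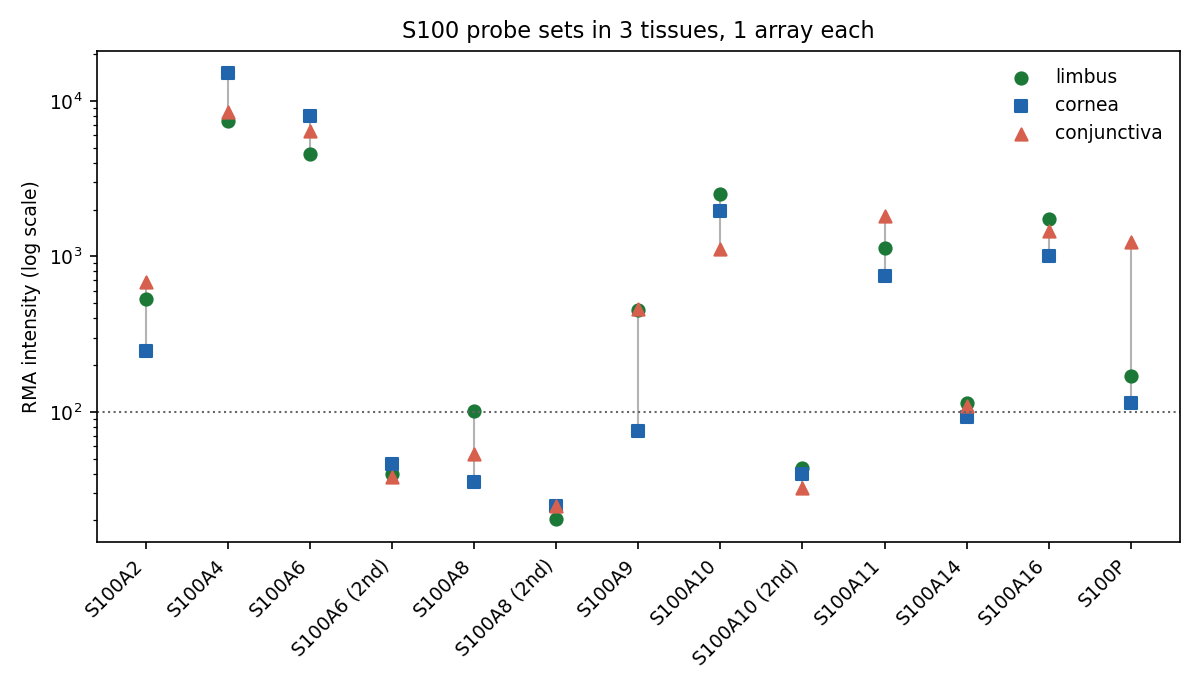
RMA intensity (log scale) of each S100 probe set, with circles for the limbus, squares for the cornea, and triangles for the conjunctiva, 1 array per tissue, with a line from the lowest to the highest value. The dotted line marks a value of 100, and "2nd" is the dimmer probe set of a gene. The conjunctiva stands far above both other tissues for S100P, and the cornea far below them for S100A9.

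A transcript was counted for a tissue when its value there was at least 2-fold that of each other tissue, which is the selection used in the study. With this rule, among the 13 member probe sets, 0 were counted for the limbus (0.355% of all probe sets), 0 for the cornea (1.32% of all), and 1, that of S100P, for the conjunctiva (1.1% of all). Differences between a pair of tissues were more frequent. Between the limbus and the cornea, 4 of 13 member probe sets (S100A2, S100A4, S100A8, and S100A9) were at least 2-fold apart, compared with 4.63% of all probe sets. Between the limbus and the conjunctiva the count was 2 of 13, with S100A10 and S100P (3.57% of all probe sets). Between the cornea and the conjunctiva it was 4 of 13, with S100A2, S100A9, S100A11, and S100P (7.69% of all). The same counts stood against 10 member probe sets when only those reaching 100 were kept, and the shares over all such probe sets were then 9.52%, 7.16%, and 16.3%, respectively.

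S100P, a calcium sensor of secretory epithelia that binds ezrin, showed the largest difference of the members. Its probe set (204351_at) had a value of 169 in limbal, 113 in corneal, and 1237 in conjunctival tissue. The conjunctiva exceeded the limbus 7.30-fold and the cornea 10.9-fold, while the limbus exceeded the cornea 1.5-fold. All of these values were above 100. Under the scalings and the pseudocount that were tried, the ratio of the conjunctiva to the limbus was not below 5.95. Goblet cell genes moved with S100P. Of 7 goblet cell genes on the list, all 7 were highest in the conjunctiva and 5 were counted for it. The limbus was the lowest tissue for 3 of them and the cornea for 4. Their summed level was 1358 in limbal, 1792 in corneal, and 9301 in conjunctival tissue, and such a sum follows its brightest probe sets, here AGR2. The brightest of them were AGR2, a secretory pathway disulfide isomerase (595 in limbal, 1220 in corneal, and 4718 in conjunctival tissue), MUC5AC, and TFF1, a trefoil peptide (222, 83.7, and 1568). AGR2 and S100P differed in the order of the cornea and the limbus. The part of goblet cells in the S100P value was not tested.

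Ezrin (EZR), which links membranes to actin and is a known target of S100P, was ordered differently from it. The brightest EZR probe set had a value of 1551 in limbal, 906 in corneal, and 1192 in conjunctival tissue, and all 4 EZR probe sets that reach 100 were highest in the limbus. The genes whose pattern over the 3 tissues lay closest to that of S100P, by the distance over the log2 ratios between tissues, were an immunoglobulin kappa sequence (IGKV1OR2-118), the lectin intelectin (ITLN1), and the secreted protease inhibitor WFDC2. The closest, IGKV1OR2-118, had a value of 181 in limbal, 135 in corneal, and 1227 in conjunctival tissue. Intelectin, a goblet cell product of mucosae, had a value of 66.8 in limbal, 40.1 in corneal, and 533 in conjunctival tissue. WFDC2 had 138, 77.3, and 1032, in the same order. Of 11002 other genes, 7 lay within a distance of 0.5 of S100P.

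S100A8 and S100A9, the calprotectin subunits, are carried together by neutrophils and monocytes. S100A9 (203535_at) had a value of 452 in limbal, 75.2 in corneal, and 456 in conjunctival tissue. The limbus was 6.01-fold and the conjunctiva 6.07-fold above the cornea, and the limbus and the conjunctiva were 1.01-fold apart, a difference that changed direction when the arrays were divided by their medians or their hybridization controls. Because the corneal value lies under 100, the size of the corneal ratios is uncertain, and with a pseudocount of 32 they were 4.51-fold and 4.56-fold.

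S100A8 was much dimmer than 100 outside the limbus. Its brighter probe set (202917_s_at) had a value of 101 in limbal, 35.3 in corneal, and 53.8 in conjunctival tissue. The limbus exceeded the cornea 2.85-fold and the conjunctiva 1.87-fold, and with a pseudocount of 32 the former ratio was 1.97-fold. On the other S100A8 probe set (214370_at) all tissues lay between 20.3 and 24.8 and the limbus was lowest. On the brighter S100A8 probe set both calprotectin subunits had their lowest value in the cornea. The limbus exceeded the conjunctiva for S100A8, while for S100A9 these tissues could not be ordered. S100A12, a further myeloid member, was under the array median throughout, with 19.5 in limbal, 20.2 in corneal, and 22.9 in conjunctival tissue.

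Of 10 neutrophil genes, 2 reached 100 in a tissue, and the summed level of the list was 629 in limbal, 570 in corneal, and 728 in conjunctival tissue. CSF3R, the receptor for granulocyte colony-stimulating factor, had 141, 138, and 170, the chemokine receptor CXCR1 had 115, 128, and 141, and the formyl peptide receptor FPR1 had 87.1, 72.8, and 86.6. Of the granule and surface markers, MPO, CEACAM8, and CXCR2 were at most 31.5 in any tissue. Brighter, but still under 100, were ELANE (40.6, 40.5, and 52.4) and FCGR3B (51.4, 55.0, and 47.9). Of 9 monocyte and macrophage genes measured, 7 were lowest in the cornea and 8 highest in the conjunctiva, and the summed level was 742 in limbal, 599 in corneal, and 951 in conjunctival tissue. CD14, the lipopolysaccharide co-receptor, was the brightest of these, with 157, 97.7, and 186. MNDA, a nuclear antigen of myeloid cells from the neutrophil list, was singled out after its values were seen. It had 61.3 in limbal, 17.1 in corneal, and 86.3 in conjunctival tissue, all under 100, with the cornea lowest, as for S100A9. Of the 10 neutrophil genes, 5 were lowest in the cornea, 4 in the conjunctiva, and 1 in the limbus. MNDA was the only 1 of them with the limbus at least 2-fold above the cornea. The part of neutrophils, monocytes, and macrophages in the S100A8 and S100A9 values was not tested.

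Of 4 receptors for extracellular S100 proteins, AGER, TLR4, and CD36 stayed under 100 on their brightest probe sets. Of these, AGER, the receptor for advanced glycation end products, had 60.4 in limbal, 53.5 in corneal, and 55.8 in conjunctival tissue. TLR4, a receptor that calprotectin can engage, had 57.2, 41.8, and 61.0. CD36, a scavenger receptor that binds calprotectin with fatty acids, had 70.8, 23.4, and 69.8, so that the cornea was lowest, as for S100A9, but at values too low for a firm ratio. BSG, which encodes basigin, a receptor for S100A9, reached 100 in all tissues, with 134, 221, and 170 and the highest value in the cornea.

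The genes closest in pattern to S100A9 were the matricellular factor CCN2 (120 in limbal, 19.9 in corneal, and 122 in conjunctival tissue), the efflux transporter ABCC4, and ZSWIM5, and 22 genes lay within a distance of 0.5. Those closest to S100A8 were the interferon-induced ubiquitin-like protein ISG15 (467, 163, and 240), NALF2, and DUOXA2, a maturation factor of dual oxidase (313, 112, and 156), with 46 genes within that distance. With 3 tissues a close pattern is easily met.

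**Figure D2:**
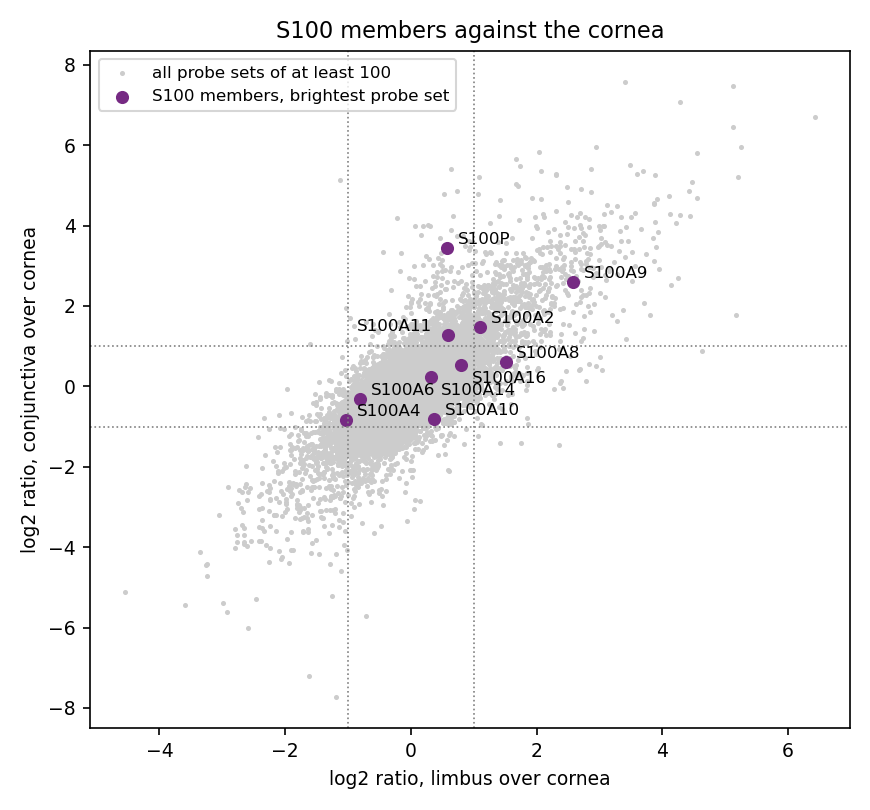
Log2 ratio of the limbus to the cornea (horizontal) and of the conjunctiva to the cornea (vertical) for the brightest probe set of each S100 member, over all probe sets that reach 100 in at least 1 tissue (grey). Dotted lines mark 2-fold differences. S100P lies at 0.58 and 3.45, S100A9 at 2.59 and 2.60, and S100A4 at -1.03 and -0.84.

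S100A2 and S100A14 are epithelial members, and S100A16 is described with them as a partner of S100A14. S100A2 is a p53-regulated protein of basal keratinocytes. Its probe set (204268_at) had a value of 529 in limbal, 247 in corneal, and 683 in conjunctival tissue. The limbus was 2.14-fold and the conjunctiva 2.77-fold above the cornea, and the conjunctiva was 1.29-fold above the limbus. The cornea was lowest under every scaling, and the ratio of the limbus to the cornea was between 2.01-fold and 3.29-fold over the scalings and the pseudocount.

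S100A16, a widely expressed member, was bright in all tissues, with 1751 in limbal, 1004 in corneal, and 1461 in conjunctival tissue (227998_at). The limbus exceeded the cornea 1.74-fold and the conjunctiva 1.2-fold, so that no pair was 2-fold apart. With the 3 arrays quantile normalized together the limbus was 2.12-fold above the cornea. S100A14, an epithelial member, showed the smallest difference of all members. It had 114 in limbal, 91.9 in corneal, and 109 in conjunctival tissue (218677_at), and its highest and lowest values were 1.24-fold apart. S100A14 and S100A16 form heterodimers, and they had the same order of tissues, with the limbus highest and the cornea lowest. Of all pairs of members, they lay closest in pattern, at a distance of 0.60 on the log2 scale. Next were S100A2 with S100A11 at 0.63 and S100A4 with S100A6 at 0.65. Genes that differ little among tissues lie close by this measure. No other genes were searched for likeness to S100A14 or S100A16, as neither was 2-fold apart between tissues.

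The stratified epithelial genes as a list were ordered differently from these members. Of 9 stratified epithelial genes measured, 7 were lowest in the conjunctiva, and the summed level was 24716 in limbal, 26179 in corneal, and 17455 in conjunctival tissue. SFN (7758 in limbal, 10907 in corneal, and 4892 in conjunctival tissue) and KRT5 (6129, 7264, and 3293) were highest in the cornea. KRT14, a basal keratin, and EPCAM, an epithelial adhesion molecule singled out after its values were seen (568, 707, and 978), were highest in the conjunctiva. KRT14 had 4580 in limbal, 53.1 in corneal, and 5521 in conjunctival tissue, and so had the same order of tissues as S100A2. KRT5, the other keratin on the list, did not share this order and was lowest in the conjunctiva. The part of basal cells in the S100A2 value was not tested. The genes closest to S100A2 in pattern were the potassium channel KCND3, the interferon-induced membrane protein IFITM2 (1800, 846, and 2386), and the interleukin receptor IL10RA, and 158 genes lay within a distance of 0.5.

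S100A10 and S100A11 are the annexin-binding members. S100A10 (p11) joins annexin A2 at the plasma membrane and brings plasminogen and its activator together. It was 1 of 4 members with the limbus highest. Its brighter probe set (200872_at) had 2530 in limbal, 1959 in corneal, and 1115 in conjunctival tissue. The limbus exceeded the conjunctiva 2.27-fold and the cornea 1.29-fold, and the cornea exceeded the conjunctiva 1.76-fold. The dimmer probe set (238909_at) had the same order, with 43.6, 40.0, and 32.2. S100A10 was also the only member whose brightest probe set was lowest in the conjunctiva.

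Annexin A2 (ANXA2) itself was, as deposited, ordered differently from S100A10. Its 3 bright probe sets lay between 6951 and 7107 in the limbus, between 9274 and 9611 in the cornea, and between 7914 and 8407 in the conjunctiva. All were highest in the cornea and lowest in the limbus, and no pair of tissues was 2-fold apart. The log2 ratios of the limbus were between -0.451 and -0.384 to the cornea and between -0.274 and -0.170 to the conjunctiva. Division by the hybridization controls adds 0.62 and 0.29 to these ratios, so the limbus is not lowest under that scaling. AHNAK, a giant scaffold protein that the annexin A2 and S100A10 complex binds, had 2516 in limbal, 2094 in corneal, and 1977 in conjunctival tissue on its brightest probe set, the same order as that of S100A10. A dimmer AHNAK probe set (220016_at) was counted for the cornea, with 148, 362, and 51.1, so the probe sets of this gene disagree. Tissue plasminogen activator (PLAT), a ligand of S100A10, was counted for the conjunctiva, where S100A10 was lowest. It had 121 in limbal, 120 in corneal, and 545 in conjunctival tissue, which was 4.49-fold above the limbus.

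S100A11, a partner of annexin A1 with a role in keratinocyte growth control, had its highest value in the conjunctiva. Its probe set (200660_at) had 1136 in limbal, 753 in corneal, and 1818 in conjunctival tissue. The conjunctiva exceeded the cornea 2.41-fold and the limbus 1.60-fold, and the limbus exceeded the cornea 1.51-fold. Annexin A1 (ANXA1), an anti-inflammatory annexin, had the same order of tissues. It had 7403 in limbal, 3172 in corneal, and 9819 in conjunctival tissue, so that the conjunctiva was 3.10-fold above the cornea. S100A11 and S100A2 were close in pattern, at a distance of 0.63. The genes closest to S100A11 were CCDC71L, TNNT1, and FRZB, with 253 genes within a distance of 0.5, and those closest to S100A10 were ACADSB, CDKN1A, and SLC22A5, with 156.

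S100A4 and S100A6 were the members with the highest value in the cornea. S100A4, which binds nonmuscle myosin and promotes cell motility, had a value of 7402 in limbal, 15121 in corneal, and 8466 in conjunctival tissue (203186_s_at). The cornea exceeded the limbus 2.04-fold and the conjunctiva 1.79-fold. The former ratio was 1.58-fold with the arrays quantile normalized together and 1.33-fold with division by the hybridization controls, and under both the limbus was slightly above the conjunctiva in place of below it. S100A6 (calcyclin), a member linked to proliferating cells, had 4559 in limbal, 7967 in corneal, and 6422 in conjunctival tissue on its brighter probe set (217728_at). Its corneal value was 1.75 times the limbal and 1.24 times the conjunctival value. With division by the hybridization controls S100A6 was at the same level in the cornea and the conjunctiva, with a log2 ratio of -0.01. With the arrays quantile normalized together its cornea was 1.31-fold above the limbus, and the limbus and the conjunctiva were 1.01-fold apart. The dimmer S100A6 probe set (228923_at) was also highest in the cornea, with 39.9, 46.3, and 38.1.

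The targets of these members that follow were less than 2-fold apart between tissues on their brightest probe set. MYH9, the nonmuscle myosin heavy chain that S100A4 binds, had 268 in limbal, 316 in corneal, and 326 in conjunctival tissue. CACYBP, the calcyclin-binding protein, had 901, 820, and 811 on its brightest probe set. Of its others, 211761_s_at (391, 635, and 542) alone had the same order as S100A6. The conjunctiva was highest on 210691_s_at (324.1, 332.2, and 362.7) and on the dim 201382_at (44.0, 39.7, and 46.1). SUGT1, a chaperone-associated protein that S100A6 binds, had 1240, 2042, and 1646 on its brightest probe set and shared the order of S100A6. Its dimmer probe sets 224309_s_at and 244368_x_at shared it too. On 223330_s_at (136, 203, and 93.5) and 228045_at (93.4, 114.5, and 59.1) the cornea was highest but the conjunctiva lowest. Fibroblast genes were split. Of 10 fibroblast and stromal genes, 7 were highest in the conjunctiva and 3 in the cornea, and the summed level was 14748 in limbal, 18051 in corneal, and 25744 in conjunctival tissue. The proteoglycan decorin (DCN) had 5084, 9335, and 6415 and, like S100A4 and S100A6 as deposited, was highest in the cornea and lowest in the limbus. For both members the order of the limbus and the conjunctiva depended on the scaling, as given above. The collagens COL1A2 (2892, 2257, and 6032) and COL1A1 (2371, 1542, and 5589) were highest in the conjunctiva. The part of stromal cells in the S100A4 value was not tested. Among the genes closest to S100A4 in pattern was the fibrillar collagen COL5A2, with 749, 1562, and 869, next to ELOF1 and NINJ2, and 443 genes lay within a distance of 0.5.

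Outside the 10 members, 10 further S100 genes of a list of 12 had a probe set, and 2 of them reached 100. S100A13, which takes part in the release of growth factors without a signal peptide, had 464 in limbal, 674 in corneal, and 545 in conjunctival tissue, and its dimmer probe set was highest in the cornea as well. S100A1, a regulator of calcium cycling in muscle, had 90.0, 100, and 179. None of the 10 was counted for a tissue. S100B, the glial and melanocytic member, was at most 27.2 on its brightest probe set, although melanocyte genes were measured. PMEL, a protein of the melanosome matrix, had 695 in limbal, 212 in corneal, and 420 in conjunctival tissue. Of 5 Schwann cell genes measured, S100B included, 3 reached 100, and the summed level was 1566 in limbal, 1866 in corneal, and 1593 in conjunctival tissue. Most of this sum came from ERBB3 (1218.5, 1628.7, and 889.7), so its order is that of 1 gene. Of the 5 genes, 3 were highest in the cornea and 2 in the conjunctiva, among them GFRA3 (168.5, 62.65, and 507.6). Of 6 Langerhans and dendritic cell genes, a further class of S100B-positive cells, 1 reached 100, the lipid-presenting CD1C (129, 84.8, and 152). S100A7 (psoriasin), an antimicrobial member of skin, was at most 23.1. Of the 5 fused-type S100 genes measured, which join an S100 domain to a long repeat region, cornulin (CRNN) alone reached 100. This gene, singled out after its values were seen, had 768 in limbal, 51.5 in corneal, and 574 in conjunctival tissue. Its limbal value was 14.9 times the corneal value, and it shared with S100A9 a low cornea and similar limbus and conjunctiva. Filaggrin (FLG) was counted for the limbus at values of 39.5, 14.9, and 17.2, all under 100.

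Each list was also described by its median log2 ratio on the brightest probe sets. These lists differ in level. All 10 members reached 100 in a tissue, compared with 2 of the 10 other S100 genes. The number was 17 for the 21 partners and receptors and 11003 for all 19775 genes. The median of the limbus minus the cornea was 0.59 for the 10 members, -0.05 for the 10 other S100 genes, 0.08 for the 21 partners and receptors, and -0.05 over all 19775 genes. The median of the cornea minus the conjunctiva was -0.57 for the members, 0.16 for the other S100 genes, -0.06 for the partners and receptors, and 0.01 over all genes. The median of the limbus minus the conjunctiva was -0.10 for the members and -0.04 over all genes. Of the 21 partners and receptors, 1, PLAT, was counted for the conjunctiva on its brightest probe set, and 0 were counted for the limbus or the cornea.

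In the vervet annotation (assembly mChlSab1.0.hap1) 9 of the 10 members lie on 1 chromosome, and S100P lies on another. Their order there is S100A14, S100A16, S100A2, S100A4, S100A6, S100A8, S100A9, S100A11, and S100A10, with S100A3 between S100A2 and S100A4 and S100A5 between S100A4 and S100A6. No other protein-coding gene lies between S100A14 and S100A6. The neighbors S100A14 and S100A16 shared their order of tissues, whereas S100A2 and S100A4, with S100A3 between them, did not. The log2 ratio of the limbus to the cornea changed from 1.10 for S100A2 to -1.03 for S100A4. S100A11 and S100A10, with 1 gene between them, were opposite in the conjunctiva, where S100A11 was highest and S100A10 lowest. S100A9 and CRNN, which had the largest ratios of the conjunctiva to the cornea on this chromosome among these families, are separated by 35 protein-coding genes.

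**Figure D3:**
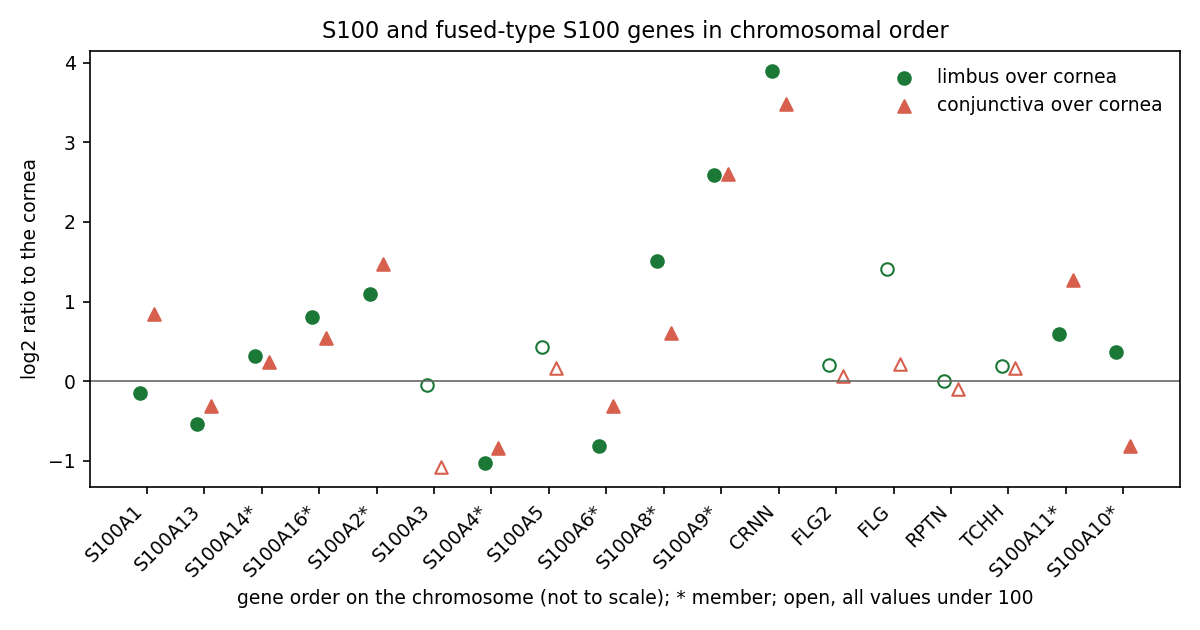
Log2 ratio to the cornea of the limbus (circles) and the conjunctiva (triangles) for S100 and fused-type S100 genes in the order of the vervet annotation, brightest probe set of each, spacing not to scale. Open symbols are genes with all values under 100, and members carry an asterisk. Only the chromosome with 9 of the members is drawn, so S100P is not shown. CRNN (3.90 and 3.48) and S100A9 (2.59 and 2.60) stand highest on it, and S100A4 (-1.03 and -0.84) is below the cornea in both tissues.

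Among the scalings, division by the hybridization controls shifted every log2 ratio of the limbus to the cornea by 0.62, every ratio of the limbus to the conjunctiva by 0.29, and every ratio of the cornea to the conjunctiva by -0.32. It brought the ratio of the limbus to the cornea to 2-fold or more for S100A11, S100A16, and S100P. The low corneal values of S100A9, S100A2, and S100A11 against the conjunctiva and the high conjunctival value of S100P stayed 2-fold or more apart under each scaling and with the pseudocount.

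**Figure D4:**
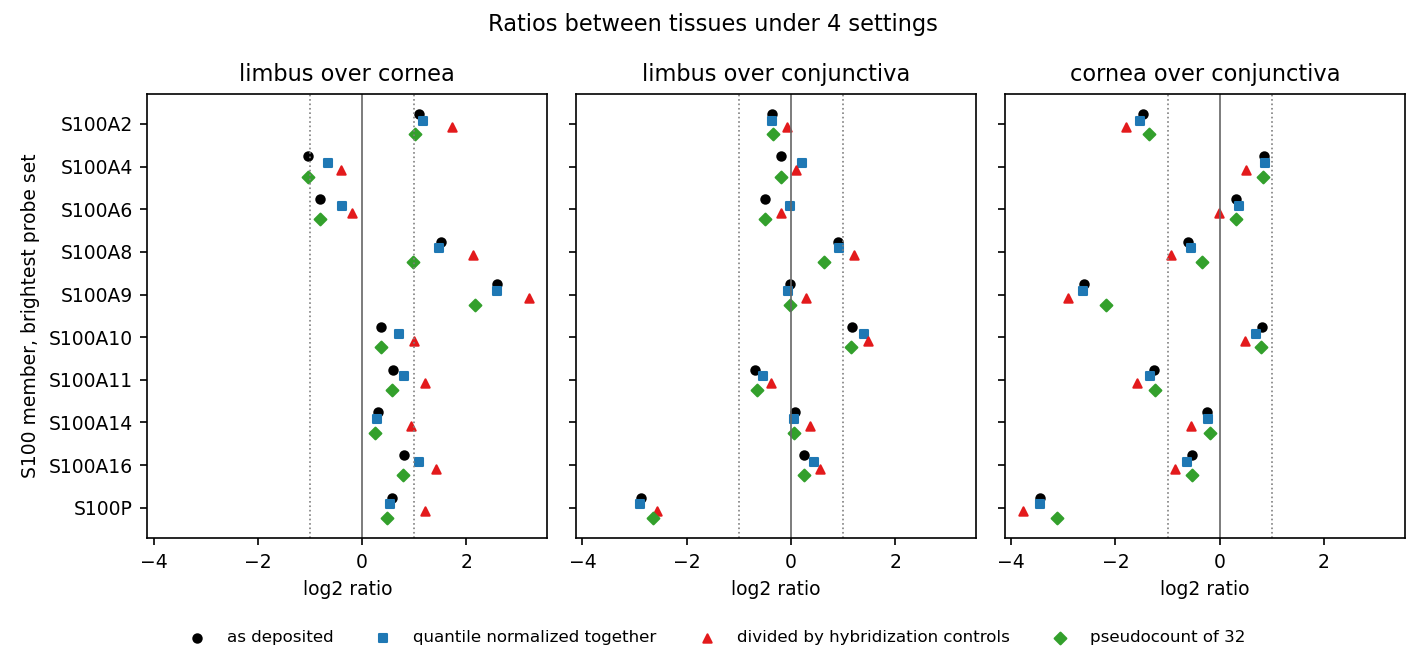
Log2 ratio of each S100 member between a pair of tissues (brightest probe set) as deposited, with the arrays quantile normalized together, with division by the hybridization controls, and with a pseudocount of 32. Dotted lines mark 2-fold. For the limbus over the cornea, division by the hybridization controls moves S100A9 from 2.59 to 3.20, S100P from 0.58 to 1.20, and S100A4 from -1.03 to -0.41.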

How the data were processed

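The authors took the tissues from the same eye, amplified total RNA in 2 rounds, hybridized it to human U133 Plus arrays, and normalized each array by RMA (no version is given in the sources used here) with the justRMA routine and a fixed pool of reference arrays. The deposited table holds linear intensities for 54675 probe sets, with 0 missing values. Normalization against the pool, array by array, need not bring the 3 arrays to one scale. The arrays carry probes for human sequence, so a level of 1 probe set says little against that of another. They were set against each other to choose the brightest probe set or marker and in the summed level of a list, which follows its brightest probe sets. Probe sets were named from the platform annotation, in which 41097 had 1 symbol, 1801 several, and 11777 none given here. An "_s_at" or "_x_at" suffix marks probes that can match more than 1 transcript.

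Ratios, counts, and distances were computed with Python 3.11.15, numpy 2.4.6, and pandas 2.3.3, and drawn with matplotlib 3.10.9. No filter on level was used unless stated. The brightest probe set of a gene is that with the highest mean log2 value. The distance between genes is Euclidean over the 3 log2 ratios between tissues, among genes reaching 100 in a tissue, with the 3 closest named. The counting rules were tested on simulated data. Members and lists were chosen with earlier results of these data known. All members are named, with S100-related list genes counted for a tissue at 100 or more and at most 3 markers of a cell type, those of the highest value. Other list genes, named for their known binding or class, were picked after their values were seen. The number of arrays limits the precision. Alternatives were 3 scalings, a pseudocount of 32, thresholds of 1.5 and 3, a minimum of 100, and 2 ways of counting genes.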

Additional observations from a re-analysis of the deposited data

How the results depend on the processing

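With 1 array per tissue no library could be left out, and a ratio counts as moved when it changes by more than 1.5-fold. No paired analysis was possible because each tissue has 1 array, and the shared eye gives a single matched set. At a threshold of 1.5-fold, 1 member probe set was counted for the limbus (S100A8), 1 for the cornea (S100A4), and 2 for the conjunctiva (S100P and S100A11), and 7, 4, and 7 were apart between the limbus and the cornea, the limbus and the conjunctiva, and the cornea and the conjunctiva. At 3-fold, 1, 1, and 2 were apart. The share over all probe sets was not computed at either threshold, so the counts there describe the members only. With division by the hybridization controls 1 member (S100A8) was counted for the limbus. With genes read by the median log2 ratio over their probe sets, 1 (S100P) was apart between the limbus and the conjunctiva. The other alternatives kept each of these counts within 1.5-fold of that reported. Of the 30 ratios between tissues of the 10 members, 10 were at least 2-fold as deposited, and none of these changed direction. The number of these still at 2-fold was 9 with quantile normalization and 9 with the hybridization controls (without S100A4), 9 with the pseudocount (without S100A8), 10 with division by the medians, and 8 with the median over probe sets (without S100A8 and S100A10). With the hybridization controls 10 ratios moved and 4 were newly 2-fold. The 10 are those of the limbus to the cornea, all shifted by the same 0.62, so this count is set by the scaling and not by the members. The share over all probe sets was not computed under this scaling. Values under 100 limit S100A8, S100A14, and the corneal level of S100A9.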
